A study of Homo sapiens with 12 samples.

Results

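The IFIT genes and RSAD2 were followed across 12 RNA-seq libraries of LNCaP, an androgen-sensitive prostate cancer cell line derived from a lymph node metastasis. The 5 genes, IFIT1, IFIT2, IFIT3, IFIT5 and RSAD2, were taken by symbol, and all 5 were found among the 13001 genes of the deposited tables. The cells had been transfected with Lipofectamine 2000 at passage 8 and grown with 10% serum, and the medium was replaced 6 hours later. There were 3 libraries each for cells given a plasmid coding for SRRM4, a neural splicing factor, for LSD1+8a, the isoform of the histone demethylase LSD1 (gene KDM1A) that retains microexon 8a, for LSD1, and for an empty vector. All groups are the same line, so each result is on 1 cell line after transient transfection. In bulk RNA, a few cells with much transcript and many cells with little cannot be told apart. Separate cultures are not stated for the 3 libraries of each group, and p-values therefore rest on a spread between libraries that could be technical.

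Total counts ran between 10.88 and 13.57 M per library. KDM1A lay between 92.0 and 100 CPM (counts scaled to library size) in SRRM4 libraries, between 1980 and 2610 CPM in LSD1+8a libraries, between 515 and 587 CPM in LSD1 libraries and between 93.7 and 95.2 CPM in empty-vector libraries. LSD1+8a cells thus carried 4.20-fold the KDM1A transcript of LSD1 cells, and the isoform and its amount cannot be told apart in that comparison. All 10 listed luminal prostate markers were measured, with summed levels of 5940 to 5980 TPM in SRRM4 libraries, 6460 to 6680 TPM in LSD1+8a libraries, 6720 to 6920 TPM in LSD1 libraries and 6500 to 6590 TPM in empty-vector libraries. TPM is a level scaled to transcript length and library total. With SRRM4 5 of the 10 were lower than with the empty vector and 1 higher in edgeR, and the part of marker changes in the results that follow was not tested. Of 8 leukocyte markers 1 was measured (CD68, 3.52 to 7.72 TPM over all libraries), of 6 fibroblast markers 2 (7.62 to 11.3 TPM summed over all libraries), of 4 endothelial markers 1 (VWF, 2.70 to 4.03 TPM) and of 5 basal prostate markers 2 (15.2 to 22.5 TPM summed). With SRRM4, VWF (-0.29, adjusted p = 0.0131 in edgeR) and the basal marker ITGA6 (-0.23, adjusted p = 0.00261) were also lower than with the empty vector.

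IFIT proteins and viperin are antiviral effectors made when a cell senses foreign nucleic acid or interferon. IFITs are built of tetratricopeptide repeats and have no known enzyme activity: they bind viral or unmethylated RNA ends and keep such RNA from being translated. Viperin, the product of RSAD2, is a radical SAM enzyme that turns CTP into a chain-terminating nucleotide analogue. Their genes are classical targets of the transcription factors that interferon activates, which bind the interferon-stimulated response element (ISRE), and several of them also respond to IRF3 without interferon.

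The 4 IFIT genes lie in a cluster on chromosome 10 and RSAD2 lies on chromosome 2. Promoter windows of 300 bases, 250 before and 50 after an annotated start, were available in RefSeq (GRCh38.p14) for 4 of the 5 genes, with 2 starts each for IFIT3 and RSAD2, and for IFIT2 none was printed. The core of the ISRE was searched as TTTCNNTTTC and its reverse complement GAAANNGAAA. Because the measured genes differ in response, the windows of genes that did and did not change are given 5′ to 3′, with the matches in capitals. They are IFIT1 (chr10:89392373-89392672), the upstream start of IFIT3 (chr10:89327747-89328046), IFIT5 (chr10:89414318-89414617) and the downstream start of RSAD2 (chr2:6877527-6877826), all on the plus strand.
IFIT1: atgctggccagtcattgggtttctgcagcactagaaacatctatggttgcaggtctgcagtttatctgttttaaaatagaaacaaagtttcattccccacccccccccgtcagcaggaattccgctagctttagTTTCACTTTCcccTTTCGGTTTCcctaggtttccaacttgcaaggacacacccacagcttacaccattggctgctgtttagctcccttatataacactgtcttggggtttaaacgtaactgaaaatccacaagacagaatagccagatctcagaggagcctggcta
IFIT3: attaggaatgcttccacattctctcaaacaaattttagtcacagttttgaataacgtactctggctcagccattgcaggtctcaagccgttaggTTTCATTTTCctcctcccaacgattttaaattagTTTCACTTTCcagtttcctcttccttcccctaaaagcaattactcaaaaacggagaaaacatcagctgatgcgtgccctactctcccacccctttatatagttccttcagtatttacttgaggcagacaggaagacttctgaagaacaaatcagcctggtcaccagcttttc
IFIT5: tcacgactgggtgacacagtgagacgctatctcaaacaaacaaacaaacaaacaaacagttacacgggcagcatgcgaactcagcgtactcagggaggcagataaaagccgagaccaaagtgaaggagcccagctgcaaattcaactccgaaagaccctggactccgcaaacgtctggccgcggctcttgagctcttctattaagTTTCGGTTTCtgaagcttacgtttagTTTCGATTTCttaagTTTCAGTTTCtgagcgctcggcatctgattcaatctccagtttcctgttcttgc
RSAD2: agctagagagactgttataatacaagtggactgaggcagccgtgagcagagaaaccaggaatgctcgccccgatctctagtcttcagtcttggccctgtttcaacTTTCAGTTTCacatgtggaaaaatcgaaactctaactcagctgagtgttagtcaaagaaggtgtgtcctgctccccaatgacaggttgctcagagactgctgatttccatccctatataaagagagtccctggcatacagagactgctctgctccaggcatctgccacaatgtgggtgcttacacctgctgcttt

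IFIT1 held 2 matches, first bases at -116 and -103 from the start, and the printed IFIT3 window held 2, at -156 and -122. The other IFIT3 window also held 2, at -94 and -51. IFIT5 held 3 matches, the most of the 6 windows searched, with first bases at -45, -19 and -4, the last of them running across the start. RSAD2 held 1, at -145, and its upstream window, at chr2:6865635-6865934, held none of these letters. Of all 35116 RefSeq promoter windows, 3.57% held at least 1 match and 0.037% held 3 or more. Of the 13213 windows of genes in the count table, 2.75% and 0.0605% did. Of the 68 windows of other interferon-stimulated genes in that table, 50% and 4.41% did. The interferon-gamma type core TTCNNNGAA, which reads the same on both strands, matched none of the 6 member windows. It matched 7.66% of all windows, 6.17% of count-table windows and 22.1% of the windows of the other interferon-stimulated genes. A match describes letters only, and no binding was measured here.

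**Figure D1:**
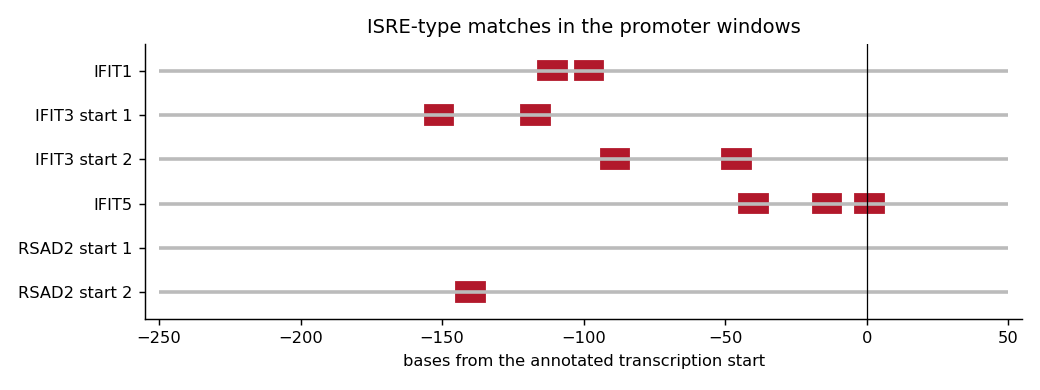
Position of ISRE-type matches (red boxes, 10 bases each) in the 6 promoter windows of IFIT1, IFIT3, IFIT5 and RSAD2, in bases from the annotated start (vertical line). IFIT5 carries 3 matches, whose first bases lie at -45, -19 and -4, so that the last runs across the start, and the upstream start of RSAD2 carries none.

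With SRRM4, 4 of the 5 genes were higher than with the empty vector, IFIT1, IFIT2, IFIT3 and RSAD2, by 3.71- to 7.71-fold, and the fifth, IFIT5, was not called. With LSD1+8a the same 4 genes were higher by 2.93- to 4.18-fold and IFIT5 was again not called. With LSD1 none of the 5 was called by edgeR, although 4 of 5 log2 fold changes were above 0. The threshold for a call was 0.05 on the p-value of edgeR's quasi-likelihood test after Benjamini-Hochberg adjustment across the whole table. Of all 13001 genes 4.47% were called higher with SRRM4, 0.285% with LSD1+8a and 0.0462% with LSD1, each against the empty vector. SRRM4, LSD1+8a and LSD1 share the same empty-vector libraries, so these 3 comparisons are not independent. The members' median log2 fold changes were 1.96, 1.67 and 0.32 in these comparisons, beside medians over all genes of -0.0011, 0.00092 and 0.0019. All SRRM4 libraries lay above all empty-vector libraries for 4 of the 5 genes, against 13.0% of all genes, and likewise for 4 with LSD1+8a (6.12% of all genes) and 1 with LSD1 (5.48%).

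**Figure D2:**
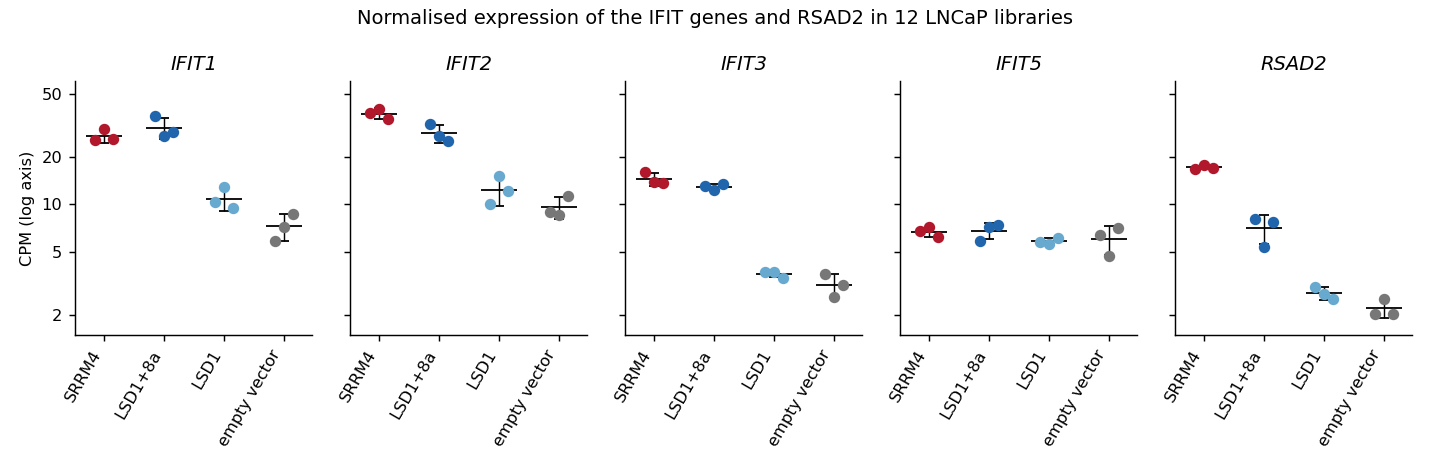
CPM (log axis) of each gene in the 12 libraries. Points are libraries, horizontal bars group means and error bars SD (n = 3). In IFIT1, IFIT2, IFIT3 and RSAD2 every SRRM4 and LSD1+8a library lies above every LSD1 and empty-vector library, and in IFIT5 the SRRM4, LSD1+8a and empty-vector points overlap.

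IFIT1, which binds capped RNA that lacks 2′-O-methylation and blocks its translation, stood at 25.5, 30.1 and 25.8 CPM in SRRM4 libraries, 35.9, 27.0 and 28.7 CPM in LSD1+8a libraries, 10.3, 12.9 and 9.45 CPM in LSD1 libraries and 5.92, 7.23 and 8.75 CPM in empty-vector libraries. The SRRM4 and LSD1+8a values overlapped each other and lay above all other libraries. The log2 fold change over the empty vector was 1.89 with SRRM4 (SE 0.153, adjusted p = 9.45e-07 in edgeR) and 2.06 with LSD1+8a (SE 0.148, adjusted p = 7.63e-07). IFIT1 was also the member nearest to a call with LSD1: all 3 LSD1 libraries lay above the 3 empty-vector ones. Its log2 fold change there was 0.57 with a 95% interval of 0.19 to 0.95, an unadjusted p of 0.00600 and an adjusted p of 0.645 in edgeR.

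IFIT3, which binds IFIT1 and strengthens its hold on RNA, stood at 16.1, 13.8 and 13.6 CPM in SRRM4 libraries, 13.1, 12.3 and 13.4 CPM in LSD1+8a libraries, 3.75, 3.75 and 3.46 CPM in LSD1 libraries and 3.63, 2.61 and 3.12 CPM in empty-vector libraries. SRRM4 and LSD1+8a libraries were again high, the lowest SRRM4 value just above the highest LSD1+8a value, and LSD1 and empty-vector libraries overlapped. Its log2 fold changes over the empty vector were 2.22 with SRRM4 (SE 0.134, adjusted p = 7.89e-15 in edgeR), 2.05 with LSD1+8a (SE 0.134, adjusted p = 1.84e-13) and 0.23 with LSD1 (95% interval -0.11 to 0.57, adjusted p = 0.910).

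IFIT2, a partner of IFIT3 that binds AU-rich RNA, stood at 37.6, 40.2 and 34.4 CPM in SRRM4 libraries, 32.1, 26.9 and 25.2 CPM in LSD1+8a libraries, 10.0, 15.1 and 12.1 CPM in LSD1 libraries and 8.92, 8.57 and 11.3 CPM in empty-vector libraries. All SRRM4 libraries lay above all LSD1+8a libraries, and LSD1 overlapped the empty vector. The log2 fold changes over the empty vector were 1.96 with SRRM4 (SE 0.133, adjusted p = 6.06e-08 in edgeR), 1.55 with LSD1+8a (SE 0.136, adjusted p = 5.75e-06) and 0.37 with LSD1 (95% interval 0.027 to 0.70, adjusted p = 0.799). In the last comparison IFIT1 and IFIT2 were the 2 members with an unadjusted p under 0.05, DESeq2 gave an adjusted p for none of the 5, and limma-voom called 0.

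RSAD2 had the lowest counts of the members at baseline, 26 to 34 counts per empty-vector library, and with SRRM4 the largest fold change of the 5. It stood at 16.8, 17.7 and 16.9 CPM in SRRM4 libraries, 8.09, 5.39 and 7.71 CPM in LSD1+8a libraries, 3.03, 2.72 and 2.53 CPM in LSD1 libraries and 2.05, 2.53 and 2.05 CPM in empty-vector libraries. The SRRM4 libraries stood above the LSD1+8a libraries, and these above the rest, while an LSD1 library shared its value with the highest empty-vector library. The log2 fold change over the empty vector was 2.95 with SRRM4 (SE 0.153, adjusted p = 9.51e-17 in edgeR), rank 5 of 13001 genes, and 1.67 with LSD1+8a (SE 0.170, adjusted p = 1.71e-08), rank 13. On deposited TPM the LSD1+8a rise was not called (0.83 on the log2(TPM + 1) scale, adjusted p = 0.0584 in limma-trend). With LSD1 the log2 fold change was 0.32 (95% interval -0.094 to 0.73, adjusted p = 0.884 in edgeR).

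IFIT5, which binds RNA with a 5′-triphosphate, was not called in any of the 6 comparisons. It stood at 6.77, 7.17 and 6.23 CPM in SRRM4 libraries, 5.92, 7.22 and 7.38 CPM in LSD1+8a libraries, 5.82, 5.62 and 6.16 CPM in LSD1 libraries and 6.39, 4.70 and 7.08 CPM in empty-vector libraries. Groups overlapped in every comparison except SRRM4 against LSD1, whose libraries just failed to meet and differed by 0.20 on the log2 scale (adjusted p = 0.509 in edgeR). Its fold change over the empty vector was 1.11 with SRRM4 (95% interval 0.901 to 1.37), 1.13 with LSD1+8a (0.919 to 1.39) and 0.970 with LSD1 (0.785 to 1.2). The intervals leave room for a change of up to 1.39-fold and lie below the lower bounds of the other 4 genes, 2.95 or more with SRRM4 and 2.40 or more with LSD1+8a. The SRRM4 direction was not stable, with -0.090 on the log2(TPM + 1) scale.

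**Figure D3:**
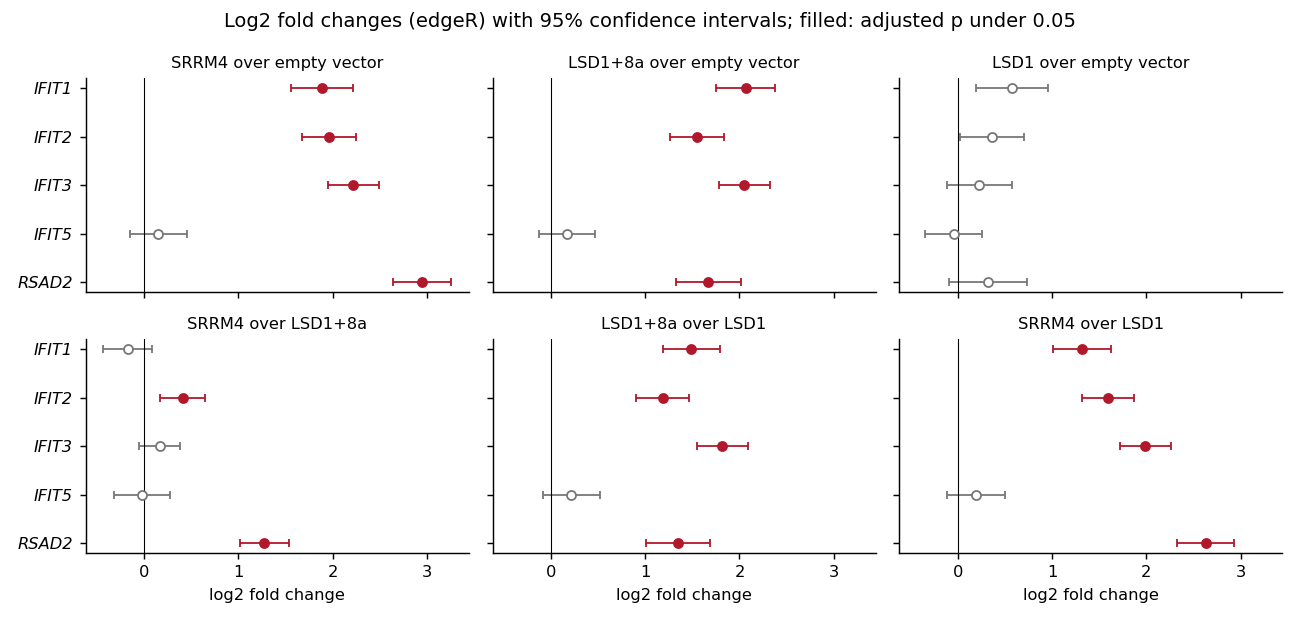
Log2 fold changes of the 5 genes in 6 comparisons, with 95% confidence intervals from edgeR. Filled red points have an adjusted p under 0.05. RSAD2 reaches 2.95 for SRRM4 over the empty vector and 1.28 for SRRM4 over LSD1+8a, and IFIT5 stays near 0 in every panel.

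In SRRM4 set against LSD1+8a the members with a call were RSAD2 and IFIT2. RSAD2 was 2.43-fold higher with SRRM4 (95% interval 2.03 to 2.90, log2 fold change 1.28, adjusted p = 3.86e-09 in edgeR), and all 3 SRRM4 libraries lay above all 3 LSD1+8a libraries. IFIT2 was 1.33-fold higher (1.13 to 1.57, adjusted p = 0.0348). IFIT3 was not called (1.12-fold, 0.967 to 1.31, adjusted p = 0.383), nor was IFIT1 (0.887-fold, 0.740 to 1.06, adjusted p = 0.463) or IFIT5 (0.985-fold, 0.801 to 1.21, adjusted p = 0.958). Of all genes 4.42% were called higher in this comparison, beside 2 of the 5 members, and 12.7% had all SRRM4 libraries above all LSD1+8a libraries, beside 3 of the 5. The IFIT2 call ended without LSD1+8a replicate 2 (adjusted p = 0.134) or 3 (0.110), without SRRM4 replicate 1 (0.109) or 2 (0.135), with a block for replicate number (0.0745), and on TPM. The RSAD2 call held in all 16 alternatives, with log2 fold changes of 1.12 to 1.52. Among these, the fit without a low-count filter could not differ from the main fit, whose filter removed 0 genes.

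LSD1+8a set against LSD1 compared the microexon isoform with the canonical one at unequal amounts. KDM1A transcript was 4.20-fold higher with LSD1+8a, so isoform and amount cannot be told apart here. The 4 genes were higher with LSD1+8a: IFIT3 by 3.53-fold (95% interval 2.93 to 4.25, adjusted p = 1.09e-11 in edgeR), IFIT1 by 2.81-fold (2.28 to 3.46, adjusted p = 2.72e-05), RSAD2 by 2.55-fold (2.02 to 3.22, adjusted p = 1.72e-06) and IFIT2 by 2.27-fold (1.87 to 2.76, adjusted p = 0.000144). IFIT5 was not called (1.16-fold, 0.944 to 1.43). Of all genes 0.208% were called higher in this comparison, and 6.16% had no overlap in that direction, beside 4 of the 5 members. On the log2(TPM + 1) scale RSAD2 lost its call here (0.73, adjusted p = 0.164 in limma-trend). SRRM4 against LSD1 gave the same 4 calls, against 4.38% of all genes called higher, and all 5 members had SRRM4 libraries above LSD1 libraries, against 13.2% of all genes. In that comparison RSAD2 was 6.19-fold higher (5.01 to 7.64, adjusted p = 1.90e-15), rank 3 of 13001 genes, and IFIT3 was 3.97-fold higher (3.30 to 4.78).

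In the authors' deposited table the log2 fold changes over the empty vector were 2.95 for RSAD2, 2.22 for IFIT3, 1.97 for IFIT2 and 1.89 for IFIT1 with SRRM4. With LSD1+8a the authors' deposited table gave 1.67 for RSAD2, 2.05 for IFIT3, 1.55 for IFIT2 and 2.06 for IFIT1. IFIT5 was at 0.15 there with SRRM4 and 0.17 with LSD1+8a. The DESeq2 alternative used here gave the same values for the members, so these are not separate results. For LSD1 the authors' deposited table gave no adjusted p for any of the 5, beside an unadjusted p of 0.000284 for IFIT1 and 0.0111 for IFIT2.

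Per length, the order of the genes differed between groups. In SRRM4 libraries IFIT1 stood highest at 20 ± 1.61 TPM (mean ± SD, n = 3 here and below), then IFIT2 at 14.4 ± 0.934, RSAD2 at 10.9 ± 0.227, IFIT3 at 8.03 ± 0.783 and IFIT5 at 3.53 ± 0.476 TPM, with no overlap between neighbours. In LSD1+8a libraries IFIT1 (23.0 ± 3.53 TPM), IFIT2 (11 ± 1.34 TPM) and IFIT3 (7.23 ± 0.318 TPM) led, and IFIT5 (4.47 ± 0.677 TPM) and RSAD2 (3.76 ± 0.431 TPM) overlapped. RSAD2 thus stood above IFIT3 and IFIT5 with SRRM4, and with LSD1+8a below IFIT3 and level with IFIT5. In LSD1 libraries the order was IFIT1 (8.16 ± 1.44 TPM), IFIT2 (4.86 ± 1.05 TPM), IFIT5 (3.52 ± 0.262 TPM), IFIT3 (2.05 ± 0.0954 TPM) and RSAD2 (1.89 ± 0.448 TPM), with overlap between the last 2. In empty-vector libraries it was IFIT1 (5.37 ± 1.05 TPM), IFIT5 (3.87 ± 1.02 TPM), IFIT2 (3.66 ± 0.573 TPM), IFIT3 (1.71 ± 0.285 TPM) and RSAD2 (1.70 ± 0.520 TPM), and of these neighbours IFIT2 and IFIT3 alone did not overlap. At baseline these were low-level genes: with the empty vector RSAD2 stood above 3.28% and IFIT1 above 18.2% of the listed genes by TPM.

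The summed level of the 5 genes was 56.9 ± 2.35 TPM with SRRM4, 49.5 ± 4.63 TPM with LSD1+8a, 20.5 ± 1.80 TPM with LSD1 and 16.3 ± 1.90 TPM with the empty vector. That is 3.49-, 3.03- and 1.26-fold the empty-vector mean. RSAD2 made up 19.2 ± 1.15% of the sum with SRRM4, against 7.60 ± 0.502% with LSD1+8a. IFIT1 made up 35.2 ± 1.93% with SRRM4, against 46.4 ± 2.69% with LSD1+8a. For both shares the 3 SRRM4 libraries did not overlap the 3 LSD1+8a libraries (exact two-sided permutation p = 0.1, the smallest that 3 against 3 allows, and 0.167 adjusted over 30 tests). Shares of TPM also depend on the ratio of TPM to CPM. For RSAD2 its mean was 0.637 with SRRM4 and 0.540 with LSD1+8a, and for IFIT1 0.738 and 0.755. By counts RSAD2 was 2.43-fold higher with SRRM4 than with LSD1+8a. IFIT5 had a smaller mean share in each of the other groups than with the empty vector, where it was 23.5 ± 3.92%. It was 6.19 ± 0.643% in SRRM4, 9.14 ± 2.0% in LSD1+8a and 17.3 ± 2.56% in LSD1 libraries (exact permutation p = 0.1 for each, adjusted 0.167). Because a share also falls when the other genes rise, these p-values do not show a change in IFIT5 itself.

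**Figure D4:**
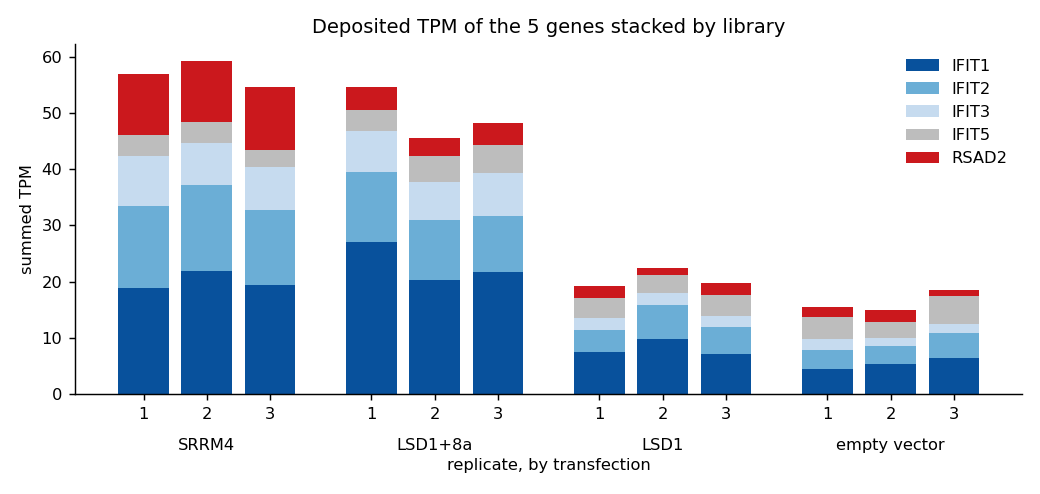
Deposited TPM of the 5 genes stacked for each library, in 4 groups of 3. Sums lie between 54.6 and 59.3 TPM with SRRM4, 45.6 and 54.6 TPM with LSD1+8a, 19.2 and 22.5 TPM with LSD1 and 14.9 and 18.5 TPM with the empty vector, and the RSAD2 block is widest in SRRM4 libraries.

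Ordered by start, the measured genes next to the IFIT genes were LIPA and PANK1, and neither was called. LIPA, the lysosomal acid lipase gene whose annotated span covers the IFIT cluster on the other strand, had log2 fold changes over the empty vector of 0.04 with SRRM4 (adjusted p = 0.771 in edgeR) and -0.02 with LSD1+8a (adjusted p = 0.986). PANK1, a pantothenate kinase gene on the far side, was at 0.16 with SRRM4 (adjusted p = 0.358) and -0.13 with LSD1+8a (adjusted p = 0.887). Of the genes farther out, ACTA2, KIF20B and RPP30 were not called in either comparison. FAS, the death receptor gene, is the measured gene before LIPA in that order and overlaps no IFIT gene. It rose by 0.70 with SRRM4 (adjusted p = 0.000703 in edgeR) and was not called with LSD1+8a (0.14, adjusted p = 0.919).

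CMPK2, a nucleotide kinase gene that overlaps RSAD2 in the annotation and is itself interferon-inducible, stood at 5.08 ± 0.836 CPM with SRRM4, 6.57 ± 0.754 CPM with LSD1+8a, 4.55 ± 0.958 CPM with LSD1 and 4.27 ± 0.857 CPM with the empty vector. It was called neither with SRRM4 (0.26, adjusted p = 0.449 in edgeR) nor with LSD1+8a (0.62, adjusted p = 0.158). RNF144A, on the other side of RSAD2, was lower with SRRM4 (-0.28, adjusted p = 0.0328). ID2 (0.47, adjusted p = 0.0673), SOX11, RPS7 and KIDINS220 were not called with SRRM4.

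**Figure D5:**
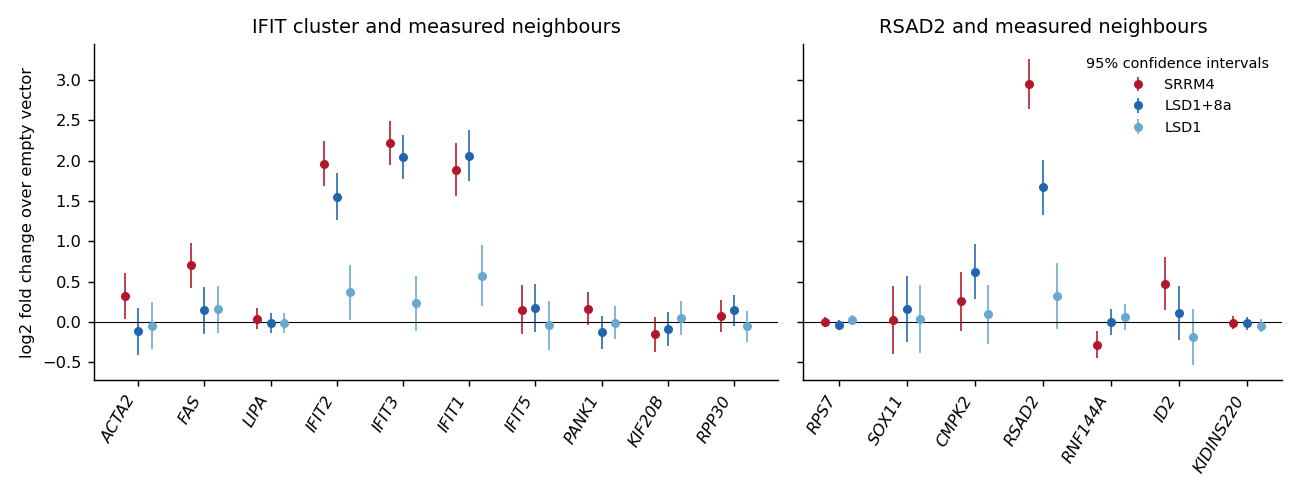
Log2 fold change over the empty vector, with 95% confidence intervals, for the measured genes in chromosomal order around the IFIT cluster (left) and RSAD2 (right). IFIT2, IFIT3, IFIT1 and RSAD2 stand between 1.55 and 2.95 with SRRM4 and LSD1+8a, while LIPA, IFIT5, PANK1 and CMPK2 stand between -0.13 and 0.62.

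Genes with the most similar profiles were found by the root-mean-square difference in log2 CPM over the 12 libraries, each gene centred on its empty-vector mean. For IFIT1 these were IFITM1, an inhibitor of virus entry (0.210), OASL, an OAS-like antiviral protein (0.249), and IFIT2 (0.304). OASL also came first for IFIT2 (0.259) and IFIT3 (0.305). For RSAD2 the 3 nearest of 13000 genes were IFIT3 (0.457), IFIT2 (0.519) and IFIT1 (0.591), so that its nearest profile was farther off than those of the IFITs. For IFIT5 they were PPM1L (0.0788), LINC00478 (0.0943) and MKLN1-AS2 (0.107), none of them called in any comparison with the empty vector. IFITM1 was lower with SRRM4 than with LSD1+8a (-0.36, adjusted p = 0.0461 in edgeR), the opposite direction to RSAD2.

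Some of the other interferon-stimulated genes rose with SRRM4 and with LSD1+8a. Of 67 measured, 32 were higher with SRRM4 than with the empty vector and 24 with LSD1+8a, with a median log2 fold change of 0.23 in each. Beside these counts, 4.47% of all genes were called higher with SRRM4 and 0.285% with LSD1+8a. None of the 67 was lower in either comparison by edgeR, by DESeq2 or by limma-voom, or at an unadjusted p under 0.05. With LSD1 3 were higher by edgeR and 3 by limma-voom, the ubiquitin-like modifier ISG15 (0.36, adjusted p = 8.55e-05 in edgeR), IFI27 (0.94, adjusted p = 0.00277) and IFI6 (0.64, adjusted p = 0.00217). With LSD1, edgeR called 0.0462% of all genes higher. DESeq2 gave 65 of the 67 no adjusted p there and called 0. Between SRRM4 and LSD1+8a 5 of the 67 were higher with SRRM4 and 8 lower, with a median of -0.07, beside 4.42% and 3.17% of all genes. The 5 were PML, TAP1, TRIM22, GBP2 and RNF213, which like IFI6 are named after their values were seen. IFI27, a strongly interferon-induced gene, was among the lower ones (-0.76, adjusted p = 7.43e-05), whereas OASL (-0.16, adjusted p = 0.339) and ISG15 (-0.05, adjusted p = 0.499) were not called. Those 13 calls became 7 without LSD1+8a replicate 2, 8 without SRRM4 replicate 1 and 8 with DESeq2. On the log2(TPM + 1) and log2(TPM + 0.1) scales they became 3, with 0 higher and 3 lower with SRRM4. None of the 5 higher genes kept its call on those scales.

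Upstream in the pathway, fold changes were below those of the 4 called members. Among 8 transcription factors of the interferon response, 3 were higher with SRRM4 (2 by DESeq2) and 2 with LSD1+8a. Of all genes edgeR called 4.47% and 0.285% higher, which applies to the sensors below as well. IRF9, a DNA-binding factor of the interferon response, rose by 0.46 with SRRM4 (adjusted p = 0.00542 in edgeR) and by 0.93 with LSD1+8a (adjusted p = 1.06e-07), and was lower with SRRM4 than with LSD1+8a (-0.47, adjusted p = 0.00225). IRF1 rose by 0.49 with SRRM4 (adjusted p = 0.0318). Of 9 nucleic acid sensors and adaptors 2 were higher with each, the RNA helicases DDX58 (RIG-I, 0.53 with SRRM4 and 0.97 with LSD1+8a) and IFIH1 (MDA5, 0.57 and 0.62). DDX58 was also lower with SRRM4 than with LSD1+8a (-0.44, adjusted p = 0.00112). IRF9 and DDX58 are also among the 67 interferon-stimulated genes. RSAD2 and IFIT2 had the opposite direction to IRF9, DDX58 and IFI27 in that comparison, though the IFIT2 call held in only 9 of 16 alternatives. Of the 67, 5 were higher with SRRM4, like RSAD2, and 8 lower, beside 4.42% and 3.17% of all genes.

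Of 8 measured interferon receptors and their kinases edgeR called 0 with SRRM4 or LSD1+8a, against 1 and 0 at an unadjusted p under 0.05. limma-voom called 1 with SRRM4 and DESeq2 0. JAK1, the kinase of the interferon receptors, was nearest (0.36 with SRRM4, adjusted p = 0.0518 in edgeR). None of 25 listed interferon ligand symbols matched a listed gene, and ligands were not analysed here. Among 8 negative regulators 1 was higher with SRRM4, beside 4.47% of all genes. It was the phosphatase PTPN1 (0.21, adjusted p = 0.0108 in edgeR, with 0 of the 8 called by DESeq2), while USP18, which blocks the interferon receptor, was at 0.06 (adjusted p = 0.682).

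Genes on whose products IFIT1 and viperin act or depend were tested as 2 lists. Of 8 measured cap methyltransferases and other enzymes of the RNA 5′ end, edgeR, DESeq2 and limma-voom called 0 with SRRM4 or LSD1+8a against the empty vector, with 0 and 1 at an unadjusted p under 0.05. CMTR2, which adds a 2′-O-methyl group to the cap, was lower with SRRM4 than with LSD1+8a (-0.22, adjusted p = 0.0256 in edgeR), and DESeq2 called 0 of the 8 in that comparison. Of 14 viperin partners and enzymes of its substrate pathway the 3 tools called 0 against the empty vector with either plasmid, against 1 and 2 at an unadjusted p under 0.05. VAPA, an endoplasmic reticulum membrane protein bound by viperin, was higher with SRRM4 than with LSD1+8a (0.16, adjusted p = 0.0125 in edgeR), and DESeq2 called 0 of the 14 in that comparison.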

How the data were processed

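The authors deposited whole-number counts per gene, TPM (scaled to transcript length and library) per gene and, for each transfection against the empty vector, log2 fold changes with p-values and adjusted p-values, per the file headers. The table of comparisons carries the name DESeq2. STAR 2.5.3a, RSEM 1.2.31 and the hg19 build are listed per the submitters' processing notes, without saying which step made which table. How the counting treated strand is not given in the sources used here. Whether reads of overlapping genes on opposite strands were kept apart is therefore not known.

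Deposited counts of 13001 genes (smallest total 168) were fitted in edgeR 4.0.16 (R 4.3.3) with TMM factors, filterByExpr (0 genes removed), 1 model of the 4 groups and robust quasi-likelihood tests, adjusted over all genes in each of 6 comparisons. The common biological coefficient of variation was 2.98%. Replicate libraries differed by more than sampling noise (chi-square per degree of freedom 1.44 to 2.88). The procedure was tested on simulated data. Per-library shares of deposited TPM were compared with exact permutation tests. Alternatives used limma 3.58.1 and DESeq2 1.42.0. Low counts limit RSAD2 (26 to 34 per empty-vector library) and IFIT3 (35 to 46) most.

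Named genes were the members, KDM1A, up to 4 genes per list with the smallest p in either empty-vector comparison of SRRM4 or LSD1+8a, the 3 nearest profiles of each member and 3 measured neighbours on each side, ordered by RefSeq. The members and lists were chosen with earlier results of these data known. Of 50-base windows of the members' GENCODE v29 transcripts, 0 to 2.48% also occurred in another gene on the same strand. The exception was 7.50% for IFIT2, all of them in the overlapping model AL353751.1. On the opposite strand the shares ran from 0 to 2.75%, the highest for IFIT3. IFIT2 had 0.928% there, with 17 windows in LIPA and 21 in TSIX.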

Additional observations from a re-analysis of the deposited data

How the results depend on the processing

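Of 480 recomputed log2 fold changes of the 5 genes, 461 kept direction and side of the threshold. Another 11 lost a call and 8, all of IFIT5 and none of them called, changed sign. The 461 include the DESeq2 values for LSD1 against the empty vector, which had no adjusted p and were taken as not called. They also include the fit without a low-count filter, which repeated the main fit because the main filter removed 0 genes. The number of members called changed in 3 comparisons. On TPM with either pseudocount, 4 became 3 for LSD1+8a against the empty vector and against LSD1. The 2 for SRRM4 against LSD1+8a became 1 on TPM with a pseudocount of 1 or 0.1 and 1 with the replicate block, and ranged from 1 to 2 when single libraries were left out. IFIT5 turned to -0.090 and -0.11 (SRRM4 against the empty vector, TPM with pseudocounts of 1 and 0.1) and to -0.00092 (SRRM4 against LSD1, TPM with 0.1). Leaving out single libraries moved IFIT5 between -0.0045 and 0.28 (SRRM4 against the empty vector), -0.12 and 0.036 (SRRM4 against LSD1+8a) and -0.20 and 0.086 (LSD1 against the empty vector). The cause was not tested. RSAD2 lost its calls on TPM for LSD1+8a against the empty vector (1.14 with a pseudocount of 0.1, adjusted p = 0.0760 in limma-trend) and against LSD1 (0.98, adjusted p = 0.296). Same-numbered libraries did not deviate together (correlations -0.163 to 0.143, 1 of 18 above 0.1), and the replicate block changed no call of a member other than IFIT2. Over all genes, 999 calls for SRRM4 against the empty vector became 563 with DESeq2, 325 on TPM (0.1) and 661 without SRRM4 replicate 2. Likewise 986 against LSD1+8a became 529, 203 and 561, with 609 to 653 without SRRM4 replicate 1 or LSD1+8a replicate 2 or 3. The 916 against LSD1 became 499, 178 and 488, with 556 and 605 without LSD1 replicates 2 and 3. The 45, 13 and 42 calls of the other comparisons (LSD1+8a over empty vector, LSD1 over empty vector, LSD1+8a over LSD1) ranged over 24 to 66, 5 to 20 and 19 to 49. Upper-quartile factors gave 497 higher and 561 lower for SRRM4 against the empty vector, beside 581 and 418, and 492 and 497 against LSD1+8a, beside 574 and 412. Other interferon-stimulated genes called on TPM (pseudocount 1) were 19 with SRRM4 and 15 with LSD1+8a against the empty vector, and 3 between the 2 plasmids.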

Other observations

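The ratio of deposited TPM to CPM, which falls when the transcript length assigned to a gene grows, was nearly the same in all libraries for IFIT1 (0.725 to 0.758), IFIT2 (0.378 to 0.396) and IFIT3 (0.544 to 0.571). For RSAD2 it ran from 0.611 to 0.661 in SRRM4, 0.504 to 0.606 in LSD1+8a, 0.503 to 0.841 in LSD1 and 0.545 to 0.897 in empty-vector libraries. For IFIT5 the ratio was 0.479 to 0.562 in SRRM4 libraries, below all LSD1+8a (0.632 to 0.688), LSD1 (0.577 to 0.610) and empty-vector (0.607 to 0.690) libraries. In CPM IFIT5 was 6.72 ± 0.473 with SRRM4 and 6.84 ± 0.803 with LSD1+8a, and in TPM 3.53 ± 0.476 and 4.47 ± 0.677 (SD, n = 3 each). What set these ratios was not tested.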
